A study of Homo sapiens with 12 samples.

Results

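The RNA interference machinery is the set of proteins that cut small RNA precursors, load the resulting guide strand and silence the matching mRNAs. Its mRNAs were followed here through the table rows of 10 genes chosen by name, namely the Argonautes *AGO1*, *AGO2*, *AGO3* and *AGO4*, the nucleases *DROSHA* and *DICER1*, the Dicer partner *TARBP2*, and the GW182 scaffolds *TNRC6A*, *TNRC6B* and *TNRC6C*. These were 10 of the 45416 genes in the table, and all 10 were among the 17982 genes with enough reads to be tested. The libraries came from U251, an established human glioblastoma cell line, transfected with a control siRNA (siNC) or with either of a pair of siRNAs against *PD-L1* (siPDL1-1 and siPDL1-2). Each transfected culture was then left unstimulated or given 100 U/ml IFNγ for 24 h, which made 6 groups of 2 poly(A) RNA libraries. Every group, siNC included, had received a synthetic siRNA, so no group shows the machinery without an siRNA load.

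In the known pathway, DROSHA trims microRNA hairpins in the nucleus and DICER1, helped by TARBP2, cuts them to short duplexes in the cytoplasm. An Argonaute protein keeps one strand as its guide, and a GW182 scaffold bound to it recruits the deadenylases and decapping enzymes that remove the target mRNA. A transfected siRNA skips the cutting steps and enters at Argonaute, and AGO2 is the family member best known for slicing a fully matched target.

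Levels are the normalized CPM of the deposited table, reads scaled to the size of their library. Fold changes are differences in log2(CPM + 1) with their standard error (SE), and a gene was called when limma's false discovery rate (FDR), adjusted over all genes tested, was under 0.01. Percent changes were computed from these fold changes, so they describe CPM + 1 and are slightly smaller than those of CPM. The libraries held 17101069 to 55657393 reads, and the least covered of the 10 genes, *TARBP2*, had 254 reads in the library where it had fewest. *CD274*, which encodes PD-L1, was measured in siNC cells at 4.60 and 4.91 CPM and fell by 0.64 (SE 0.0762, FDR = 1.76e-05) with siPDL1-1 and by 0.35 (FDR = 0.00183) with siPDL1-2 on the log2 scale. After IFNγ it fell by 1.00 with siPDL1-2 (FDR = 4.25e-07), and the value of -0.20 for siPDL1-1 did not pass (FDR = 0.0498). Markers summed over a glioma list reached 4752 to 5846 CPM, although within it *GFAP*, the astrocyte filament gene, stood at only 1.92 to 7.25 CPM. Summed leukocyte markers stayed at 0.0979 to 0.812 CPM and oligodendrocyte markers at 0.359 to 0.974 CPM. Endothelial markers summed to 2.01 to 5.63 CPM and neuron markers to 2.89 to 5.28 CPM, within the range of *GFAP*. The 2 libraries of a group are separate experiments per the study's methods, and a loss of mRNA per cell cannot be told apart from a change in the mix of cells.

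Before stimulation, the clearest changes with the *PD-L1* siRNAs were in a pair of Argonautes, *AGO2* lower and *AGO4* higher, with both siRNAs. *AGO2* stood at 78.0 and 81.0 CPM in the siNC libraries, at 57.6 and 57.5 CPM with siPDL1-1, and at 59.5 and 59.0 CPM with siPDL1-2. No siPDL1 library reached the siNC range, and replicates differed by little beside that gap. The level fell by 27.2% with siPDL1-1 (log2 fold change -0.46, SE 0.0482, FDR = 5.23e-06) and fell by 25.1% with siPDL1-2 (log2 fold change -0.42, FDR = 9.38e-06). *AGO4*, a family member without known slicer activity, was at 25.4 and 27.5 CPM with siNC, at 37.5 and 38.7 CPM with siPDL1-1, and at 35.9 and 35.7 CPM with siPDL1-2. Again the groups did not overlap, which was also so for *TNRC6A* with both siRNAs although it was not called. *AGO4* rose by 42.5% with siPDL1-1 (log2 fold change 0.51, SE 0.0580, FDR = 1.13e-05) and by 34.2% with siPDL1-2 (log2 fold change 0.42, FDR = 4.32e-05). Both siRNA contrasts use the same siNC libraries, so they are not independent of each other.

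*AGO1* and *AGO3* were not called in either unstimulated contrast. *AGO1* gave 99.7 and 98.5 CPM with siNC against 96.3 and 102 CPM with siPDL1-1, where the groups overlapped. With siPDL1-2 it gave 89.0 and 88.5 CPM, a log2 difference of -0.16 that did not pass (FDR = 0.0238). *AGO3* was at 55.6 and 58.4 CPM with siNC, at 52.2 and 54.4 CPM with siPDL1-1 and at 59.1 and 62.2 CPM with siPDL1-2, and its small differences had opposite signs with the 2 siRNAs (-0.10 and 0.09).

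The same pair of changes was measured in IFNγ-stimulated cells. *AGO2* was at 74.7 and 71.9 CPM with siNC, at 54.5 and 56.7 CPM with siPDL1-1 and at 54.5 and 52.7 CPM with siPDL1-2. It fell by 0.39 (SE 0.0482, FDR = 1.59e-05) and by 0.44 (FDR = 1.12e-05) on the log2 scale, and every siPDL1 library lay below both siNC libraries. *AGO4* was at 30.2 and 30.9 CPM with siNC, at 43.7 and 41.7 CPM with siPDL1-1 and at 37.5 and 36.3 CPM with siPDL1-2. Its rise was 0.47 with siPDL1-1 (FDR = 1.74e-05) and 0.26 with siPDL1-2 (FDR = 0.00332). The *AGO4* call with siPDL1-2 after IFNγ was kept in 14 of 19 alternative analyses, whereas the other *AGO4* siRNA calls and the 4 *AGO2* calls were kept in all 19. Whether IFNγ altered the siRNA effect was tested as an interaction, and the difference was 0.07 (95% confidence interval -0.08 to 0.21) with siPDL1-1 and -0.03 (-0.17 to 0.12) with siPDL1-2 for *AGO2*, neither called. The corresponding *AGO4* values were -0.04 (-0.22 to 0.13) and -0.16 (-0.34 to 0.01).

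**Figure D1:**
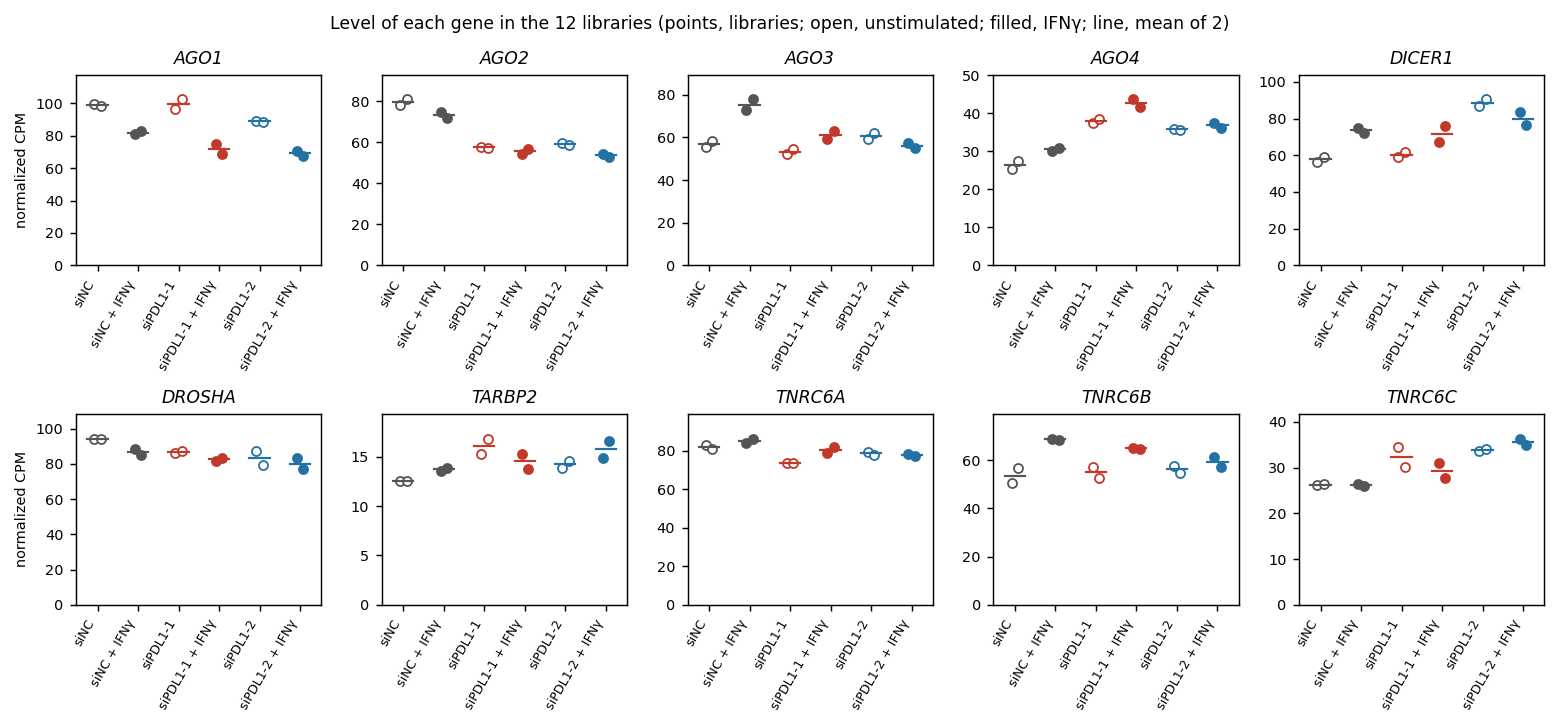
Normalized CPM (y axis, from 0) of each of the 10 genes in the 12 libraries, by siRNA and stimulation (x axis). Points are libraries, open for unstimulated and filled for IFNγ, and lines are the mean of 2. *AGO2* lies between 52.7 and 59.5 CPM in the 8 siPDL1 libraries against 71.9 to 81.0 CPM in the 4 siNC libraries, and *AGO4* lies between 35.7 and 43.7 CPM against 25.4 to 30.9 CPM.

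After IFNγ 2 further Argonaute differences from siNC were seen. *AGO3* was at 72.8 and 77.7 CPM with siNC, at 59.3 and 63.1 CPM with siPDL1-1 and at 57.2 and 55.0 CPM with siPDL1-2. It fell by 0.29 (SE 0.0556, FDR = 7.46e-04) and by 0.42 (FDR = 6.78e-05) on the log2 scale. *AGO1* was at 80.9 and 82.8 CPM with siNC, at 74.9 and 68.6 CPM with siPDL1-1 and at 70.8 and 67.7 CPM with siPDL1-2. The *AGO1* difference was called for siPDL1-2 (-0.24, FDR = 0.00281, kept in 16 of 19 alternatives) and lay just above the threshold for siPDL1-1 (-0.19).

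3 of the 4 Argonaute genes sit side by side on the plus strand of chromosome 1. In the deposited gene positions (GRCh38) *AGO4* runs from 35808016 to 35857890, *AGO1* from 35869808 to 35930532 and *AGO3* from 35930718 to 36072500. There are 11917 bases between *AGO4* and *AGO1* and 185 bases between *AGO1* and *AGO3*. In these neighbours the siRNA contrasts moved in different directions, with *AGO4* up in all 4, *AGO1* down in 1 and *AGO3* down in the 2 contrasts after IFNγ. The sequences upstream of *AGO4* and *AGO1* and the short stretch between *AGO1* and *AGO3* are shown because they lie before or between genes that are neighbours and differed. The upstream windows are the 250 bases before the RefSeq start (GRCh38.p14), at chr1:35807766-35808015 and chr1:35882959-35883208, the latter inside the longer *AGO1* span given above. The last is the intergenic stretch chr1:35930533-35930717. All are on the plus strand, and capitals mark a GC box (GGGCGG or its complement).
AGO4 upstream: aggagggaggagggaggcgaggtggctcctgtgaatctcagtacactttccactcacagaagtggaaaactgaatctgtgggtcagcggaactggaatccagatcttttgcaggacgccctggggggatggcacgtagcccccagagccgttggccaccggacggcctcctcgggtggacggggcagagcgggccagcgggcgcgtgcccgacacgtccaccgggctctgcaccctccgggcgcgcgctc
AGO1 upstream: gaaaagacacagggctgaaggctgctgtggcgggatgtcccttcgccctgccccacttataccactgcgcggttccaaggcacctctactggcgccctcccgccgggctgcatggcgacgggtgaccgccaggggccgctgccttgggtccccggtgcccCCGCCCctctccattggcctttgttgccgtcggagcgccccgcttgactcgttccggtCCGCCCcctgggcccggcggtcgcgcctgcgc
Between AGO1 and AGO3: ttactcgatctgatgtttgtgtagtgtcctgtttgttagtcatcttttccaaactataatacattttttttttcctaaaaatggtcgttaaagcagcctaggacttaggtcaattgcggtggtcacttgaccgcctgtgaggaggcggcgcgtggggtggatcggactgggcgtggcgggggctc
The *AGO1* window held 2 GC boxes and 25 CpG dinucleotides at 71.6% GC. The *AGO4* window held none of the former and 20 of the latter at 66.4% GC. The stretch between *AGO1* and *AGO3* had 48.6% GC, 10 CpG dinucleotides and no GC box. The RefSeq window of *AGO3*, at 35930855 to 35931104, starts downstream of that stretch and overlaps an annotated exon, so its letters are not shown, and it held 2 GC boxes and 41 CpG dinucleotides at 80.0% GC. Across all 35116 RefSeq promoter windows of this length, 42.6% held a GC box and the medians were 58.0% GC and 11 CpG dinucleotides. Searched on both strands, the core of the interferon-stimulated response element, present in 3.02% of all windows, was in 1 of the 18 windows of the 9 genes with an entry, an alternate start of *TNRC6C*. A motif match is a description of letters and says nothing about binding.

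Among the other genes, *DICER1* changed with one siRNA and not detectably with the other. It was at 56.4 and 59.2 CPM with siNC, at 59.0 and 61.6 CPM with siPDL1-1 and at 86.8 and 90.4 CPM with siPDL1-2. The siPDL1-2 libraries stood well above the other 4 unstimulated libraries, which overlapped. *DICER1* rose by 52.5% with siPDL1-2 (log2 fold change 0.61, SE 0.0623, FDR = 3.14e-06), while the siPDL1-1 value was 0.06 (95% confidence interval -0.07 to 0.19). It was the 1 of the 10 genes that was called and also passed a fold change of 1.5, a rule met by 6.17% of all genes tested in that contrast. After IFNγ the *DICER1* differences from siNC were -0.04 with siPDL1-1 and 0.12 with siPDL1-2 (FDR = 0.169), and neither was called.

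*TNRC6C*, one of the 3 scaffolds, was higher with both siRNAs before stimulation. It was at 26.2 and 26.3 CPM with siNC, at 34.5 and 30.1 CPM with siPDL1-1 and at 33.7 and 34.0 CPM with siPDL1-2. The rise was 0.28 (SE 0.0705, FDR = 0.00654) with siPDL1-1 and 0.35 (FDR = 0.00101) with siPDL1-2. After IFNγ it gave 26.5 and 26.0 CPM with siNC, 30.9 and 27.8 CPM with siPDL1-1 and 36.3 and 34.9 CPM with siPDL1-2, and was called for siPDL1-2 alone (0.42, FDR = 4.00e-04). The unstimulated call for siPDL1-1 was kept in 11 of 19 alternatives, and that for siPDL1-2 was lost without siPDL1-2 replicate 2 (FDR = 0.0130). The counting did not use strand, and *TNRC6C* shares 1426 exonic bases with the antisense gene *TMC6* (17.4 CPM on average against 30.6 CPM), so some of its reads could belong to either. *TMC6* fell by 0.36 with siPDL1-2 before stimulation (FDR = 0.00924) and rose by 0.71 with siPDL1-1 after IFNγ (FDR = 5.02e-05). Its values of 0.26 with siPDL1-1 before stimulation (FDR = 0.0607) and 0.27 with siPDL1-2 after IFNγ (FDR = 0.0506) were not called. *TMC6* thus had the sign of *TNRC6C* in every siRNA contrast other than siPDL1-2 before stimulation. The part of shared reads in the *TNRC6C* values was not tested.

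*TARBP2*, the least abundant of the 10 by CPM, was at 12.5 and 12.6 CPM with siNC, at 15.3 and 16.8 CPM with siPDL1-1 and at 13.9 and 14.6 CPM with siPDL1-2. It was called with siPDL1-1 (0.33, SE 0.0820, FDR = 0.00676), a call kept in 10 of 19 alternatives, and not with siPDL1-2 (0.17, FDR = 0.117). *DROSHA*, *TNRC6A* and *TNRC6B* were not called in any siRNA contrast. *DROSHA* ranged from 76.8 to 94.3 CPM over the 12 libraries and *TNRC6A* from 73.5 to 86.3 CPM, and these 2 genes were not called in any of the 11 contrasts. Their largest siRNA differences were -0.17 for *DROSHA* (siPDL1-2 before stimulation, FDR = 0.0170) and -0.15 for *TNRC6A* (siPDL1-1 before stimulation, FDR = 0.0167). The largest for *TNRC6B* was -0.21 (siPDL1-2 after IFNγ, FDR = 0.0203).

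In counts, 4 of the 10 genes were called with siPDL1-1 before stimulation, where 18.8% of all genes tested were, and 4 with siPDL1-2, where 28.4% were. After IFNγ 3 were called with siPDL1-1 against 23.8% of all genes, and 5 with siPDL1-2 against 18.4%. The median size of the log2 change over the 10 genes was 0.13, 0.17, 0.12 and 0.22 in these contrasts in that order, beside 0.15, 0.18, 0.16 and 0.15 over all genes. By this median the 10 genes differed by about as much as all genes, or less, in 3 of the 4 contrasts. Their called counts lay above the shares of all genes in each contrast, on only 10 genes. The set was not tested, and the values above belong to single members.

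**Figure D2:**
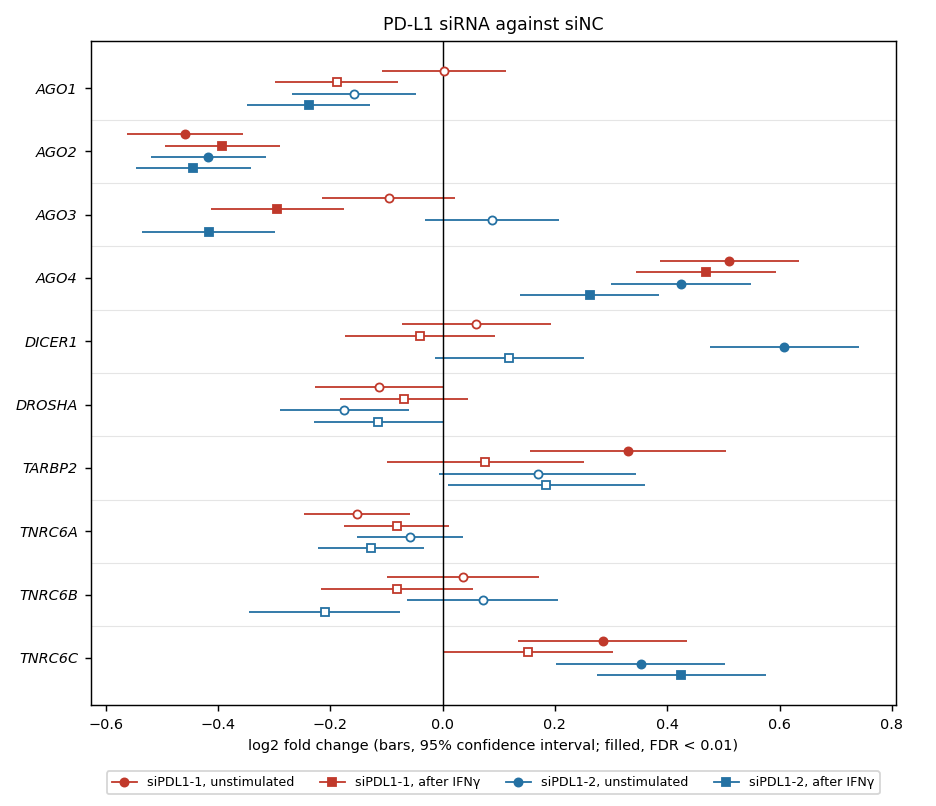
Log2 fold change against siNC (x axis) for each gene (y axis) with siPDL1-1 (red) and siPDL1-2 (blue), unstimulated (circles) and after IFNγ (squares), with 95% confidence intervals and filled symbols at FDR under 0.01. *AGO2* lies between -0.46 and -0.39 and *AGO4* between 0.26 and 0.51 in the 4 contrasts, while *DICER1* is filled once, at 0.61.

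Compared directly, the 2 *PD-L1* siRNAs differed in 1 of the 10 genes before stimulation, where 24.1% of all genes were called. That gene was *DICER1*, lower with siPDL1-1 than with siPDL1-2 by a log2 difference of -0.55 (SE 0.0623, FDR = 1.35e-05). For *AGO2* the difference was -0.04 (95% confidence interval -0.14 to 0.06) and for *AGO4* 0.09 (-0.04 to 0.21). After IFNγ none of the 10 was called by limma, edgeR or DESeq2, where limma called 10.5% of all genes, and 4 had an unadjusted p under 0.05. The nearest were *TNRC6C*, lower with siPDL1-1 (-0.27, FDR = 0.0135), and *AGO4*, higher with siPDL1-1 (0.21, FDR = 0.0212). The *AGO2* difference after IFNγ was 0.05 (-0.05 to 0.15). Both intervals for *AGO2* end nearer to 0 than its smallest difference from siNC (-0.39).

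To compare genes with each other, CPM was divided by the length of the canonical transcript. In unstimulated siNC cells *DROSHA* was highest at 17.4 CPM per kb, followed by *TNRC6A* at 9.66, *TARBP2* at 8.31 and *AGO1* at 7.23. *DICER1* at 5.56 and *AGO2* at 5.45 CPM per kb were closer than their summed SDs. *AGO4* came next at 3.64, then *TNRC6B* at 2.93 and *AGO3* at 2.90, which again were not separated beyond their spread, and *TNRC6C* was lowest at 2.53 CPM per kb. The order depends on the length taken. Averaged over the 12 libraries, dividing by all annotated exons instead of the canonical transcript moved *TARBP2* from 9.59 to 3.54 and *DICER1* from 6.93 to 3.25 CPM per kb, below *AGO1* (6.05), *AGO4* (4.73) and *AGO2* (3.98) on that scale.

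Summed over the 4 Argonautes, the level was 19.2 ± 0.392 CPM per kb (SD, n = 2) with siNC, 19.1 ± 0.499 with siPDL1-1 and 18.5 ± 0.0418 with siPDL1-2 before stimulation. The sums were thus near each other while the makeup shifted. *AGO2* made up 28.3% ± 0.166 of the sum with siNC, 20.6% ± 0.571 with siPDL1-1 and 21.9% ± 0.201 with siPDL1-2. *AGO4* made up 18.9% ± 0.712, 27.4% ± 0.107 and 26.6% ± 0.158. So *AGO2* stood above *AGO4* per kb in siNC cells, and *AGO4* stood above *AGO2* with both *PD-L1* siRNAs. After IFNγ the *AGO2* shares were 26.4%, 21.1% and 22.1%, and the *AGO4* shares 22.1%, 32.6% and 30.4%. The summed level after IFNγ was 19.0 ± 0.204 CPM per kb with siNC, 18.0 ± 0.267 with siPDL1-1 and 16.7 ± 0.447 with siPDL1-2. These shares depend on the transcript length taken for each gene and describe mRNA, not protein.

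**Figure D3:**
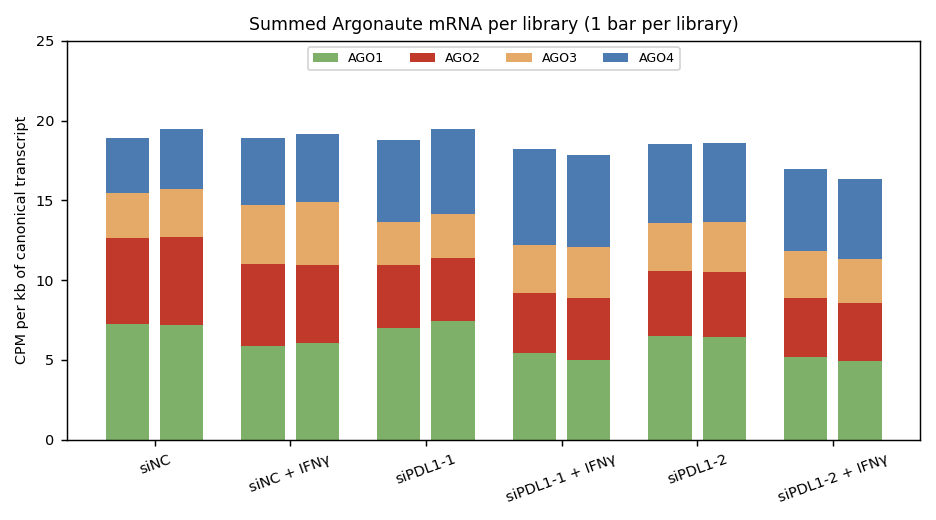
Summed Argonaute mRNA in CPM per kb of canonical transcript (y axis, from 0) with 1 stacked bar per library, 2 per group (x axis), coloured by gene. The total stays between 18.5 and 19.2 CPM per kb in the unstimulated group means, while the *AGO2* segment is smaller and the *AGO4* segment larger in the siPDL1 libraries.

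IFNγ, a cytokine released by activated T and NK cells, lowered *AGO1* in all 3 siRNA backgrounds. *AGO1* went from 99.7 and 98.5 to 80.9 and 82.8 CPM in siNC cells, from 96.3 and 102 to 74.9 and 68.6 CPM in siPDL1-1 cells, and from 89.0 and 88.5 to 70.8 and 67.7 CPM in siPDL1-2 cells. Stimulated and unstimulated libraries did not overlap in any background, which was also so for *AGO2*, not called in any of them. The *AGO1* level fell by 0.27 (SE 0.0515, FDR = 6.39e-04), 0.46 (FDR = 5.07e-06) and 0.35 (FDR = 1.13e-04) on the log2 scale, and each of these calls was kept in all 18 alternatives. The differences between backgrounds were not called, with interactions of -0.19 (95% confidence interval -0.35 to -0.04, FDR = 0.216) for siPDL1-1 and -0.08 (-0.24 to 0.07) for siPDL1-2.

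In siNC cells IFNγ also raised *AGO3*, *DICER1* and *TNRC6B*. *AGO3* went from 55.6 and 58.4 to 72.8 and 77.7 CPM (log2 fold change 0.39, SE 0.0556, FDR = 4.74e-05). *DICER1* went from 56.4 and 59.2 to 74.8 and 72.2 CPM (0.34, FDR = 4.72e-04). *TNRC6B* went from 50.3 and 56.8 to 68.9 and 68.5 CPM (0.36, FDR = 3.76e-04), and this call was lost without unstimulated siNC replicate 1 (0.27, FDR = 0.0106). In each of the 3 the stimulated libraries lay above the unstimulated ones. The same held for *TARBP2* and *TNRC6A*, which were not called, so lack of overlap does not set the 3 apart. *AGO4* came close with 0.20 (FDR = 0.0118) and *AGO2* had -0.12 (FDR = 0.0730). With *AGO1*, 4 of the 10 genes were called in siNC cells, where 27.3% of all genes were.

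In siPDL1-1 cells *DICER1* (from 59.0 and 61.6 to 67.2 and 76.0 CPM) and *TNRC6B* (from 57.2 and 52.6 to 65.1 and 64.7 CPM) rose by 0.24 each, with FDR = 0.00728 and FDR = 0.00850. These calls were kept in 10 and 8 of 18 alternatives. *AGO3* had 0.20 (FDR = 0.0128). With *AGO1*, 3 of the 10 genes were called, where 22.9% of all genes were. In siPDL1-2 cells *AGO1* alone was called of the 10, where 17.1% of all genes were. There *AGO3* went from 59.1 and 62.2 to 57.2 and 55.0 CPM (-0.11, FDR = 0.158) and *DICER1* from 86.8 and 90.4 to 83.4 and 76.4 CPM (-0.15, FDR = 0.0890).

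The test of the difference in response found 2 of the 10 genes, both with siPDL1-2. For *AGO3* the IFNγ response was lower with siPDL1-2 than with siNC by -0.50 (SE 0.0787, FDR = 3.38e-04), and for *DICER1* by -0.49 (SE 0.0881, FDR = 9.38e-04). Both calls were kept in all 18 alternatives. In this interaction 17.1% of all genes were called, with 2140 lower and 927 higher. The levels were of different kinds, since *AGO3* ended low after IFNγ, at 57.2 and 55.0 CPM, whereas *DICER1* already stood at 86.8 and 90.4 CPM before it. *TNRC6B* had -0.28 (FDR = 0.0277). With siPDL1-1 none of the 10 was called by limma, edgeR or DESeq2, with 3 at an unadjusted p under 0.05, and limma called 1.63% of all genes.

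**Figure D4:**
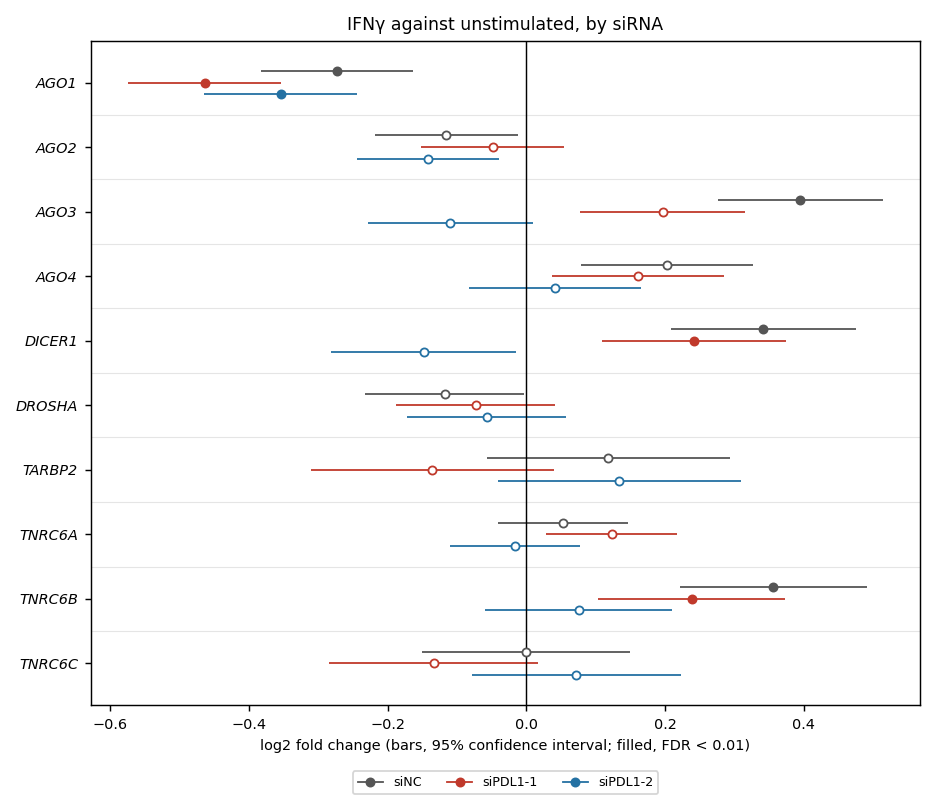
Log2 fold change of IFNγ against unstimulated (x axis) for each gene (y axis) in siNC (grey), siPDL1-1 (red) and siPDL1-2 (blue) cells, with 95% confidence intervals and filled symbols at FDR under 0.01. *AGO1* lies between -0.46 and -0.27 in all 3, while *AGO3* goes from 0.39 in siNC to -0.11 in siPDL1-2 cells and *DICER1* from 0.34 to -0.15.

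Over the 6 groups the largest F statistic among the 10 genes was that of *AGO2* (45.2), which ranked 1522 among all genes tested. The 3 genes whose log2 levels followed *AGO2* most closely were *TUBGCP4*, a subunit of the γ-tubulin ring complex (Pearson's r = 0.986), the long noncoding RNA *LINC00707* (r = 0.973) and *BAZ1B*, a chromatin remodelling factor (r = 0.973). These are the highest of 11588 genes over the same 12 libraries, and they describe shared levels only.

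Genes that act beside the machinery were counted in lists. The 14 tested genes of small RNA loading and its chaperones were called down more often than up with the siRNAs, with 7 down and 0 up for siPDL1-1 before stimulation, and 6 down and 4 up for siPDL1-2, where 18.8% and 28.4% of all genes were called in either direction. After IFNγ 7 and 6 were down and 0 up, beside 23.8% and 18.4% of all genes called. *HSP90AA1*, the inducible cytosolic HSP90 that holds Argonaute open for loading, was at 1357 and 1349 CPM with siNC, at 728 and 723 CPM with siPDL1-1 and at 843 and 850 CPM with siPDL1-2. It fell by 0.90 and 0.68 on the log2 scale before IFNγ and by 0.99 and 0.63 after it. *HSPA8*, the constitutive HSP70, fell by 0.42 and 0.61 before IFNγ and by 0.38 and 0.27 after it. *FKBP4*, an HSP90 cochaperone, fell by 0.38, 0.56, 0.42 and 0.22 in the same order. *PTGES3*, the p23 cochaperone, fell by 0.34 with siPDL1-1 before IFNγ and by 0.68 and 0.46 with the 2 siRNAs after it, and was not called with siPDL1-2 before it (0.11).

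Of the 13 genes of the microprocessor and nuclear export, 4 were down and 0 up with siPDL1-1 and 5 down and 1 up with siPDL1-2 before stimulation, beside the same 18.8% and 28.4% of all genes. *RAN*, the GTPase that powers export of microRNA precursors, went from 358 and 365 CPM with siNC to 284 and 285 CPM with siPDL1-1 and to 276 and 277 CPM with siPDL1-2. It fell by 0.34 and 0.39, and by 0.45 and 0.34 after IFNγ. *DGCR8*, the partner of DROSHA, was called once, falling by 0.32 with IFNγ in siNC cells. The medians of this list in the 4 siRNA contrasts were -0.11, -0.15, -0.16 and -0.03, beside medians over all genes between -0.01 and 0.03.

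The deadenylation, decapping and decay list, the enzymes that act after a GW182 scaffold, differed in its IFNγ counts between backgrounds. In siNC cells 13 of its 25 genes rose and 0 fell, in siPDL1-1 cells 7 rose and 1 fell, and in siPDL1-2 cells 3 rose and 1 fell, where 27.3%, 22.9% and 17.1% of all genes were called. The siPDL1-2 count is near the share of all genes. The list medians were 0.21, 0.08 and 0.02. *XRN1*, the 5′ to 3′ exonuclease, went from 49.3 and 46.9 to 145 and 148 CPM in siNC cells and rose by 1.59, 1.90 and 0.93 on the log2 scale in siNC, siPDL1-1 and siPDL1-2 cells. *PATL1*, a decapping activator, rose by 0.96, 1.31 and 1.00. *CNOT6L*, a catalytic deadenylase subunit, rose by 0.64 in siNC cells and 0.66 in siPDL1-1 cells. For 9 of the 25 genes the IFNγ response was lower with siPDL1-2 than with siNC, and for 0 higher, where 17.1% of all genes were called. Over all genes 2140 were called lower and 927 higher in that test.

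Of the 18 tested Argonaute partners, 6 rose and 1 fell with IFNγ in siNC cells, where 27.3% of all genes were called. *MOV10*, an RNA helicase found with Argonautes, rose by 1.05, 1.26 and 1.12 in the 3 backgrounds. *FMR1*, an RNA-binding translational repressor, rose by 1.04 and 1.13 in siNC and siPDL1-1 cells, and its response in siPDL1-2 cells differed from that in siNC cells by -0.85. *P4HA1*, a subunit of the prolyl hydroxylase that modifies collagen and AGO2, rose by 0.70 in siNC cells and by 0.64 with siPDL1-2 before stimulation. Of 10 genes of microRNA tailing and turnover, 4 rose with IFNγ in siNC cells and 4 with siPDL1-2 before stimulation, not far from the 27.3% and 28.4% of all genes called there. Among these *ERI1*, an exonuclease acting on small RNAs, rose by 0.91 and 0.60. *PNPT1*, the mitochondrial polynucleotide phosphorylase, rose by 1.62 with IFNγ in siPDL1-1 cells and was not called in siNC (0.17) or siPDL1-2 cells (0.11). Of the 4 PIWI genes, the germline branch of the Argonaute family, 2 were tested and 0 were called in any contrast.

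Among proteins that compete for or sense double-stranded RNA, 7 of 12 rose with IFNγ in siNC cells, 7 in siPDL1-1 cells and 6 in siPDL1-2 cells, and 0 fell, beside 27.3%, 22.9% and 17.1% of all genes called. *IFIH1*, the sensor MDA5, went from 7.44 and 8.15 to 52.3 and 55.3 CPM in siNC cells, and from 7.19 and 7.39 to 191 and 205 CPM in siPDL1-1 cells. *DDX58*, the sensor RIG-I, rose by 1.95, 4.43 and 1.58 and *EIF2AK2*, the kinase PKR, by 1.27, 2.62 and 0.75. Against siNC after IFNγ, 8 of the 12 were higher and 1 lower with siPDL1-1, and 2 were higher and 4 lower with siPDL1-2, beside 23.8% and 18.4% of all genes. Before stimulation 4 were higher and 1 lower with siPDL1-1, and 3 higher and 3 lower with siPDL1-2, beside 18.8% and 28.4% of all genes. The list medians against siNC were then 0.04 and 0.08. *DDX58* was called higher with siPDL1-1 alone (0.55), *EIF2AK2* with siPDL1-2 alone (0.30) and *IFIH1* with neither.

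A pair of broader programs was counted in the same siRNA contrasts. The median of 15 type I interferon response genes was 0.78 with siPDL1-1 before stimulation (11 up, 0 down) and 3.36 after IFNγ (14 up, 0 down). With siPDL1-2 it was -0.03 (1 up, 2 down) and 0.21 (3 up, 2 down). The median of 15 G2/M genes was -0.53 (15 down) and -0.42 (10 down, 1 up) before stimulation with siPDL1-1 and siPDL1-2. After IFNγ it was -0.64 and -0.40 (15 down each). Over all genes 18.8% were called with siPDL1-1 and 28.4% with siPDL1-2 before stimulation, and 23.8% and 18.4% after IFNγ. The part of either program in the Argonaute differences was not tested.

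The guides that an Argonaute carries were not measured, because these are poly(A) libraries, but 16 host transcripts of microRNAs were. Of these 3 rose and 1 fell with IFNγ in siNC cells, near the 27.3% of all genes called there. With the siRNAs 4 and 3 fell before stimulation and 5 and 3 after it, with 0 higher. The share of all genes called in these 4 contrasts was 18.8%, 28.4%, 23.8% and 18.4%, and the siPDL1-2 counts are near or below it. *MIR100HG* went from 29.9 and 29.4 to 57.0 and 59.6 CPM with IFNγ in siNC cells (log2 fold change 0.95, FDR = 4.28e-07), and from 35.2 and 36.7 to 32.5 and 31.4 CPM in siPDL1-2 cells. The difference in response was -1.12 (FDR = 4.20e-05), the same sign as for *AGO3* and *DICER1*. That sign was the more common one over all genes, with 2140 called negative and 927 positive. *MIR503HG* was at 7.79 and 7.62 CPM with siNC, and fell by 0.96 with siPDL1-1 and 0.65 with siPDL1-2 before stimulation. *MIR99AHG* fell by 0.64 with siPDL1-1 before stimulation, and *DLEU2* by 0.81 and 0.70 with the 2 siRNAs after IFNγ. The main 5p microRNAs of these 4 hosts are shown, in RefSeq letters with the seed (bases 2 to 8) in capitals, to let their seeds be compared. *MIR100HG* on chromosome 11 and *MIR99AHG* on chromosome 21 each hold a let-7, a miR-99 family member and miR-125b, with the same seeds in both hosts. The miR-15a-5p and miR-16-5p seed of *DLEU2* differs from that of miR-503-5p at base 8 alone.
let-7a-5p (*MIR100HG*): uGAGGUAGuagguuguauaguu
let-7c-5p (*MIR99AHG*): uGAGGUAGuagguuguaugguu
miR-100-5p (*MIR100HG*): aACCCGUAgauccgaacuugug
miR-99a-5p (*MIR99AHG*): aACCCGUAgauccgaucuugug
miR-125b-5p (both): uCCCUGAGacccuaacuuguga
miR-15a-5p (*DLEU2*): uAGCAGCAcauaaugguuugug
miR-16-5p (*DLEU2*): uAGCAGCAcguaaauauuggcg
miR-503-5p (*MIR503HG*): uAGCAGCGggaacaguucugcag
A host transcript's level is not the level of its microRNA, and host loci with other copies elsewhere, as for let-7a-5p, are not the one source of that letter sequence.

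The remaining genes lie apart from the Argonaute cluster. In the deposited gene positions (GRCh38) *DROSHA* is at 31400497 to 31532196 on the minus strand of chromosome 5. *DICER1* is at 95086228 to 95158010 on the minus strand of chromosome 14. *TARBP2* is at 53500921 to 53506431 on chromosome 12, *TNRC6A* at 24610209 to 24827632 on chromosome 16, *TNRC6B* at 40044817 to 40335808 on chromosome 22 and *TNRC6C* at 77959240 to 78108835 on chromosome 17, all on the plus strand. *DICER1* shares 80 exonic bases with the antisense gene *DICER1-AS1*, which had 6.92 CPM on average against 71.9 CPM and was not called in any of the 11 contrasts.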

How the data were processed

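Poly(A) RNA from 12 U251 libraries, 2 per group in 6 groups, was sequenced as paired ends. Per the study's methods, the authors trimmed reads and mapped them to GRCh38 with CLC Genomics Workbench without using strand, keeping reads with several hits. The deposited values, recorded as signal, are normalized CPM in which each value of a library is a whole multiple of 1 read's worth (0.0187 to 0.0586 CPM); 100% of values came out whole within 0.01 read, and the recovered reads summed to 17101069 to 55657393 per library. The mean chi-square per gene between the 2 libraries of a group was 1.85 to 7.76, where counting error alone gives about 1, so counting error is part of the spread, most of all in the unstimulated groups. Columns without a sample numbered 0.

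Genes were kept by edgeR's expression filter (10 reads, 15 in total), leaving 17982. In limma 3.58.1 (R 4.3.3, trend and robust options), log2(CPM + 1) was fitted over all 12 libraries and 6 groups, with 11 contrasts and Benjamini-Hochberg adjustment over all genes in each. Calls were made at FDR under 0.01. The pseudocount understates changes of low genes. Fold changes and p-values of the authors were not used. Alternatives were edgeR 4.0.16 (quasi-likelihood) and DESeq2 1.42.0 on the recovered reads, DESeq2 size factors, a pseudocount of 0.1, no filter, a replicate block, FDR under 0.05, a fold of 1.5, each library left out, and 6 libraries alone. Scripts were tested on simulated data. Gene positions came with the deposited values, and transcript lengths and exon overlaps from GENCODE v44. Promoters and microRNAs came from RefSeq, where 9 of the 10 genes had a promoter entry. 1 motif that was searched is not reported here.

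The 10 genes and all lists were chosen with earlier results of these data known. All 10 were named, with *CD274* as the check of the labels. Of each list the text names at most the 4 genes with the largest absolute change among those called at a mean of at least 1 CPM, and *GFAP* and the antisense genes were named after their values were seen. Groups came from the sample labels.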

Additional observations from a re-analysis of the deposited data

Results flagged for a closer look

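2 results differed between siRNA backgrounds by the test of the difference itself. For *AGO3* the IFNγ response with siPDL1-2 minus that with siNC was -0.50 on the log2 scale (SE 0.0787, limma FDR = 3.38e-04), from a response of 0.39 in siNC cells and -0.11 in siPDL1-2 cells. For *DICER1* it was -0.49 (SE 0.0881, FDR = 9.38e-04), from 0.34 and -0.15. In both genes the 2 stimulated siNC libraries lay above the unstimulated siNC libraries, and both stimulated siPDL1-2 libraries lay below the unstimulated siPDL1-2 libraries. Neither fall in siPDL1-2 cells was called (limma FDR = 0.158 for *AGO3* and 0.0890 for *DICER1*).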

How the results depend on the processing

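Of the 27 called pairs of gene and contrast, 503 values were recomputed, of which 457 kept their call and direction, 46 kept the direction without passing, and 0 turned direction. Counts of the 10 genes called moved as follows. Requiring a fold of 1.5 left 1 for siPDL1-2 before stimulation and 0 in each of the other 8 contrasts with a call. FDR under 0.05 gave 6 for IFNγ in siPDL1-1 cells, 2 for IFNγ in siPDL1-2 cells, and 3 and 2 between the siRNAs before and after IFNγ. No filter gave 1 for IFNγ in siPDL1-1 cells and 2 for siPDL1-1 before stimulation, where DESeq2 also gave 2. With 6 libraries alone, siPDL1-2 after IFNγ gave 3 and the siRNAs before stimulation differed in 3. The cause of these shifts was not tested.

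With each library left out in turn, the counts ranged from 3 to 5 for IFNγ in siNC cells, 1 to 3 in siPDL1-1 cells and 1 to 1 in siPDL1-2 cells, from 2 to 5 and 3 to 5 for siPDL1-1 and siPDL1-2 before stimulation, and from 2 to 4 and 3 to 5 after IFNγ. Between the siRNAs they ranged from 1 to 3 before and 0 to 1 after IFNγ, and for the interactions from 0 to 0 and 2 to 2. Single libraries ended these calls. *AGO3* with siPDL1-1 after IFNγ was lost without stimulated siNC replicate 2 (FDR = 0.0155), and *AGO1* with siPDL1-2 after IFNγ without that library (FDR = 0.0292) or stimulated siPDL1-2 replicate 2 (FDR = 0.0299). *AGO4* with siPDL1-2 after IFNγ was lost without any of the 4 libraries compared (FDR = 0.0123 to 0.0253). With siPDL1-1 before stimulation, *TARBP2* was lost without any of the 4 libraries compared or either unstimulated siPDL1-2 library (FDR = 0.0115 to 0.0959), and *TNRC6C* without the same libraries other than siPDL1-1 replicate 2 (FDR = 0.0121 to 0.133). Under IFNγ in siPDL1-1 cells, *DICER1* was lost without any unstimulated library or stimulated siPDL1-1 replicate 2 (FDR = 0.0111 to 0.0880). *TNRC6B* was lost there without any of the 4 libraries compared, either stimulated siNC or either unstimulated siPDL1-2 library (FDR = 0.0101 to 0.121).

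No strong pairing by replicate number was seen, with deviations of same-numbered libraries correlated at -0.13 to 0.19 over 15 pairs of groups. These values cannot show that the libraries were unpaired. With the replicate block 27 pairs were called in all, as without it, and under IFNγ in siPDL1-1 cells 3 were called with or without it, *TNRC6B* being lost (FDR = 0.0120) and *AGO3* gained. With 2 libraries per group, small changes could not be resolved. Dividing by the length of all annotated exons, a choice made after seeing the data, gave *AGO2* 27.4%, 19.8% and 21.1% of the summed Argonaute level with siNC, siPDL1-1 and siPDL1-2 before stimulation and *AGO4* 19.4%, 28.0% and 27.2%, so the order of the 2 genes in each group was kept.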
